A study of Mus musculus with 9 samples.

Results

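The genes examined here were 10 components of the endothelin, angiotensin, and lysophosphatidate signaling systems, described in fibroblasts of aged mouse lungs with and without bleomycin injury. They were picked by symbol from the deposited table of 43346 genes and comprise Edn1, Ednra, Ednrb, and Ece1 of the endothelin system, Agt, Agtr1a, and Ace of the angiotensin system, and Enpp2, Lpar1, and Lpar4 of the lysophosphatidate system. Each symbol matched 1 row, and all 10 passed the filter of an average count of at least 25 per library, so that none was left out. Gene positions are those of the deposited table, on build mm10 (GRCm38). The RNA came from Col1a1-GFP transgenic mice, a strain whose GFP reporter is driven by the collagen I promoter, and the sort kept GFP+ cells without CD45 (hematopoietic), CD31 (endothelial), or EpCAM (epithelial) at the surface, so that a library is a mixture of all fibroblasts and other collagen-producing cells of a lung. Aged sham mice (n = 4 libraries) received saline and aged bleo mice (n = 5 libraries) 1 dose of bleomycin, an antibiotic that injures the lung epithelium, both through the trachea. All were aged 18 months in the protocol and 72 weeks in the sample labels, were on the FVB background and male per the methods of the study, and were taken at day 30. Counts summed to 49921946 to 62370512 per aged sham library and to 53833507 to 68260600 per aged bleo library.

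The 3 systems share a plan, in which enzymes make a short-lived messenger and the messenger acts on G protein-coupled receptors of neighboring cells. Endothelin-1 is cut from a precursor by furin and then by endothelin-converting enzyme, and acts through the type A receptor, which drives contraction and matrix production, and the type B receptor, which also clears the peptide. Angiotensinogen is cut by renin and then by angiotensin-converting enzyme to angiotensin II, whose type 1 receptor is found on fibroblasts, smooth muscle cells, and pericytes. Autotaxin, the product of Enpp2, makes lysophosphatidate (LPA) from lysophosphatidylcholine, and LPA receptor 1 is known for fibroblast recruitment in injured lungs. Receptors of all 3 systems couple to Gq proteins, which raise calcium, and to G12 and G13 proteins, which activate RhoA.

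Of the 10 genes, Ednra and Agt rose after bleomycin, Edn1, Ece1, Agtr1a, Lpar1, and Lpar4 fell, and Ednrb, Ace, and Enpp2 did not pass the thresholds. A gene is called here if its FDR, the Benjamini-Hochberg adjusted p-value of edgeR's quasi-likelihood test over all 16877 genes tested, was under 0.10 and its fold change over 1.5. By this rule 7 of the 10 genes were called, beside 23.8% of all genes tested. For the 2 higher genes the share among all genes was 12.3%, and for the 5 lower genes it was 11.5%. The same 7 genes had no overlap between the aged sham and aged bleo libraries, as had 32.2% of all genes tested, 16.1% with the injured libraries higher and 16.1% with them lower. The median log2 fold change of the 10 genes was -0.46, and that of all genes tested was 0.01. Since these libraries are of mixed cells, fewer cells that express a gene and less of its RNA per cell cannot be told apart.

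**Figure D1:**
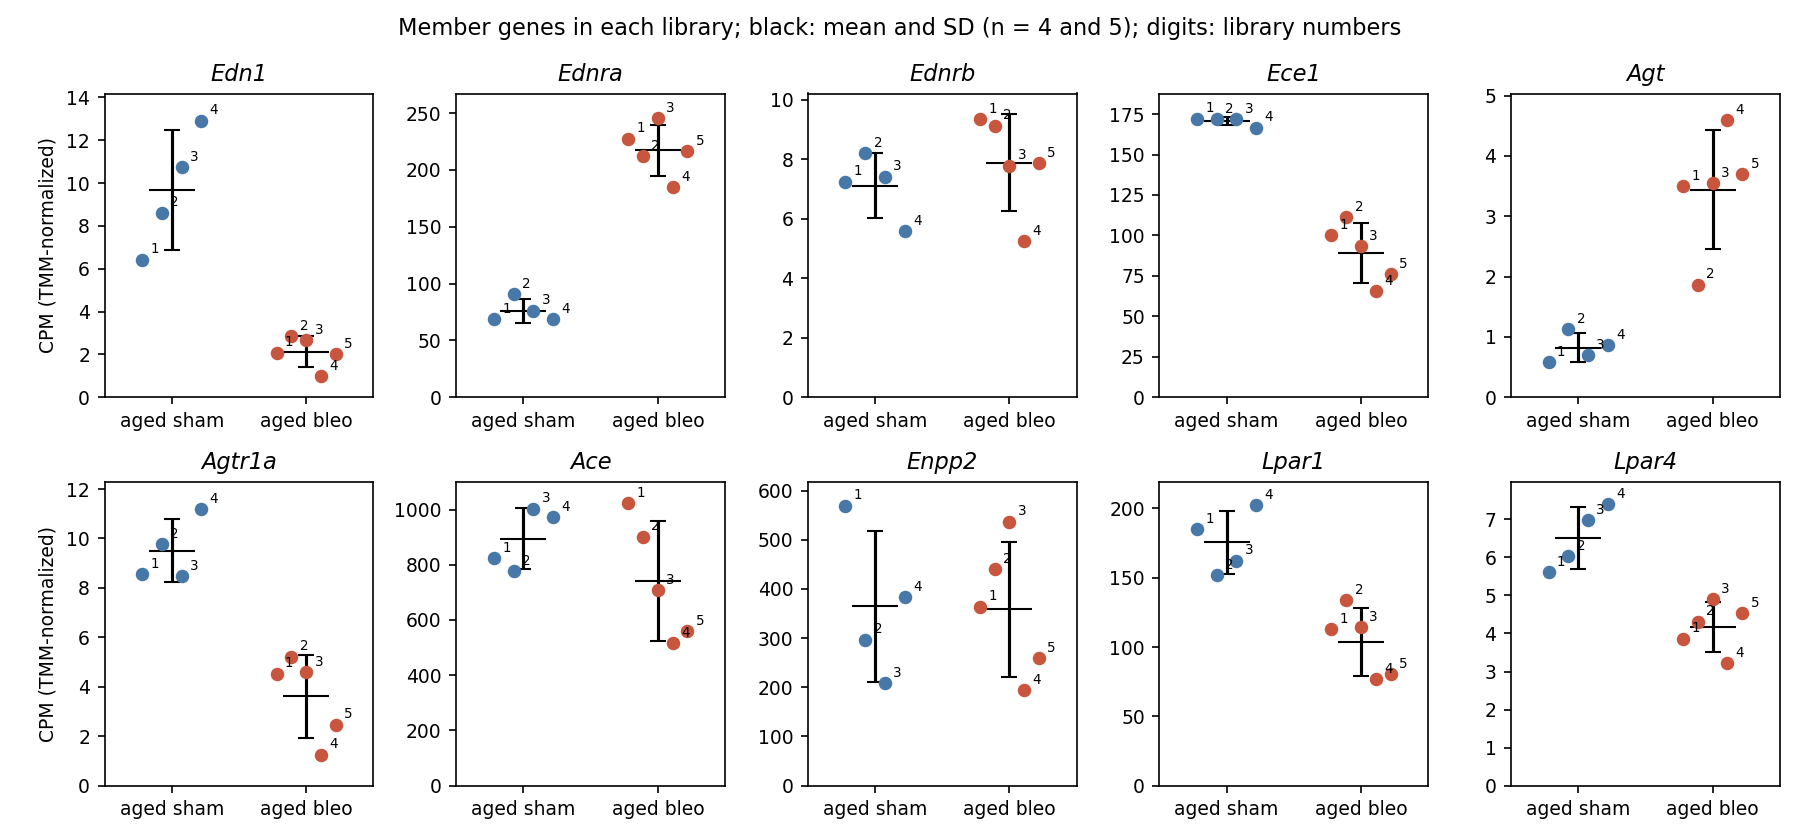
Levels of the 10 genes in each library, in CPM normalized by TMM, with aged sham libraries in blue, aged bleo libraries in red, their numbers beside the points, and the mean and SD of each group in black (n = 4 and n = 5). The groups do not overlap for Edn1, Ednra, Ece1, Agt, Agtr1a, Lpar1, and Lpar4, and they overlap for Ednrb, Ace, and Enpp2.

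In the endothelin system, the ligand gene and its converting enzyme fell while the type A receptor rose. Edn1 (ENSMUSG00000021367, chromosome 13, 42301270 to 42307989), which encodes the precursor of endothelin-1, was at 6.42, 8.62, 10.7, and 12.9 CPM in aged sham 1 to 4. It was at 2.08, 2.86, 2.67, 0.995, and 1.99 CPM in aged bleo 1 to 5. The highest aged bleo library lay well under the lowest aged sham library, and the fitted level was 4.57-fold lower (log2 fold change -2.19 ± 0.31 SE, FDR 0.00114). Within aged sham, Edn1 varied 2.01-fold between the lowest and the highest library. Ece1 (ENSMUSG00000057530, chromosome 4, 137862237 to 137965229), encoding the enzyme that releases the active peptide, was at 172, 172, 172, and 167 CPM in aged sham 1 to 4. After injury it was at 100.2, 111, 93.3, 65.6, and 76.0 CPM in aged bleo 1 to 5. The uninjured libraries were nearly equal, with an SD of 2.72 CPM, and the injured ones were all lower and spread over a 1.69-fold range (log2 fold change -0.94 ± 0.14 SE, FDR 0.00161).

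Ednra (ENSMUSG00000031616, chromosome 8, 77663031 to 77724464), the type A receptor, had 68.8, 91.0, 76.2, and 68.4 CPM in aged sham 1 to 4. After injury it had 228, 212, 246, 185, and 216 CPM in aged bleo 1 to 5. Even the lowest injured library exceeded the highest uninjured library by more than the whole range of aged sham, and the fitted level was 2.85-fold higher (log2 fold change 1.51 ± 0.12 SE, FDR 4.86e-05). Ednra had the smallest FDR and the smallest relative spread after injury of the 10 genes, with a coefficient of variation of 10.3% among the aged bleo libraries. Ednrb (ENSMUSG00000022122, chromosome 14, 103814625 to 103844173), the type B receptor, was at 7.25, 8.21, 7.41, and 5.58 CPM in aged sham 1 to 4. It was at 9.35, 9.13, 7.78, 5.25, and 7.87 CPM in aged bleo 1 to 5, and the groups overlapped (log2 fold change 0.15 ± 0.18 SE, FDR 0.562, 95% interval -0.26 to 0.55). The ratio of the type A to the type B transcript was 7.0 to 9.03 in aged sham and 17.1 to 25.9 in aged bleo. These ratios were taken within each library on the FPKM scale, in which counts are divided by gene length and library total, and the ranges did not overlap.

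The sequence before the start of Ednra is shown because the receptor rose in every injured library. It is the stretch of 238 bases before the gene as the deposited table places it, read from the RefSeq promoter table of build GRCm38.p6, on the minus strand, in lower case with any match in capitals.
Ednra, chr8:77724465-77724702: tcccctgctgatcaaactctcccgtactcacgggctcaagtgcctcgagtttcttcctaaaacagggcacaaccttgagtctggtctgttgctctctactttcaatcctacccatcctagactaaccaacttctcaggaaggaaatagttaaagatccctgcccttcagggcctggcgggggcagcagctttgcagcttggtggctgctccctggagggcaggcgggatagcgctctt
The letters searched on both strands were TGANTCA for AP-1, TATAAA for the core promoter element of that name, AGATAA for GATA factors, CACGTG for E-box factors, CCAAT for NF-Y, GGGCGG for Sp1, and CATTCC for TEAD factors. None of these contains another, although neighboring matches may share end bases. None of them occurred in this window, so it holds no capitals. In the windows of the same table, taken as the 250 bases before each start, 6.75% held the AP-1 letters, 12.4% the core promoter element, 9.99% the GATA letters, 6.02% the E-box, 33.8% the NF-Y letters, 32.7% the Sp1 letters, and 12.6% the TEAD letters, over 32817 windows. The window also lies inside 4933431K23Rik (ENSMUSG00000086451, chromosome 8, 77610860 to 77768970), a noncoding transcript of the opposite strand that spans the whole of Ednra. That transcript was at 2.49 ± 0.0832 CPM (SD, n = 4) without injury and 8.11 ± 1.10 CPM (SD, n = 5) after it (log2 fold change 1.70 ± 0.13 SE, FDR 4.08e-05). The TruSeq library kit named in the labels does not keep the strand, so reads of the 2 genes cannot be told apart where they overlap. Its summed count over the 9 libraries was 2894, against 79601 for Ednra.

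Over the wider endothelin list of 10 genes, 8 passed the filter, 3 rose, 2 fell, and 3 did not pass the thresholds. The median log2 fold change was -0.08. Among all genes tested 23.8% were called, and Edn1, Ednra, Ednrb, and Ece1 are counted again in this list. Besides the members, Furin, the convertase of the first cut, rose from 82.2 ± 2.24 CPM (SD, n = 4) to 180.0 ± 37.9 CPM (SD, n = 5; log2 fold change 1.13 ± 0.15 SE, FDR 7.30e-04). Ece2, a second converting enzyme, rose from 11.3 ± 0.503 CPM to 18.1 ± 2.23 CPM (log2 fold change 0.68 ± 0.10 SE, FDR 0.00144). The converting enzymes thus moved in opposite directions, although Ece2 remained far less abundant than Ece1 per gene length, at 1.19 against 7.22 FPKM in aged bleo. Mme, encoding neprilysin, which degrades endothelins and angiotensins, averaged 73.0 ± 5.62 CPM without injury and 48.7 ± 15.8 CPM after it, with a fold change just under the threshold (log2 fold change -0.58 ± 0.22 SE, FDR 0.0618). Of the other endothelin ligands, Edn2 was below the filter and Edn3 was at 0.746 ± 0.289 CPM and 0.609 ± 0.239 CPM (log2 fold change -0.30 ± 0.41 SE, FDR 0.599).

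In the angiotensin system, the precursor gene rose and the type 1 receptor fell, while the converting enzyme did not pass the thresholds. Agt (ENSMUSG00000031980, chromosome 8, 124556534 to 124569706), encoding angiotensinogen, the precursor protein made in bulk by the liver, was at 0.581, 1.13, 0.70, and 0.866 CPM in aged sham 1 to 4. After bleomycin it was at 3.49, 1.86, 3.55, 4.59, and 3.69 CPM in aged bleo 1 to 5. All injured libraries lay above all uninjured ones, and the fitted level was 4.19-fold higher (log2 fold change 2.07 ± 0.30 SE, FDR 0.00123), from counts of 36 to 66 reads per aged sham library and 105 to 337 per aged bleo library. Agt was the least abundant of the 10 genes per gene length in aged sham. The 250 bases before its start are shown because Agt was the member with the largest rise, on the minus strand of GRCm38.p6 and with the matched letters in capitals.
Agt, chr8:124569707-124569956: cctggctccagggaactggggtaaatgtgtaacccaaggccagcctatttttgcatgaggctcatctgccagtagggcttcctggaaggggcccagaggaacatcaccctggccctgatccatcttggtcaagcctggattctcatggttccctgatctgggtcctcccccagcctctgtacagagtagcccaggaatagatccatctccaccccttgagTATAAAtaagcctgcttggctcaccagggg
The capitals mark TATAAA, the core promoter element, whose first base is 30 bases before the start in RefSeq, and none of the other letters named above occurred. This is a match of letters and not a measured site.

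Agtr1a (ENSMUSG00000049115, chromosome 13, 30336441 to 30382867), the main type 1 receptor gene of mice, was at 8.57, 9.78, 8.48, and 11.2 CPM in aged sham 1 to 4. It was at 4.53, 5.22, 4.59, 1.25, and 2.47 CPM in aged bleo 1 to 5. Every injured library was lower than every uninjured one, but the injured libraries differed 4.16-fold among themselves, the widest range of the 10 genes (log2 fold change -1.40 ± 0.36 SE, FDR 0.0164). Its paralog Agtr1b was at 0.926 ± 0.250 CPM (SD, n = 4) and 0.781 ± 0.569 CPM (SD, n = 5) and did not pass (log2 fold change -0.25 ± 0.54 SE, FDR 0.749). Reads may be split between these similar genes, and 1.13% of the 50-base windows in the GENCODE M21 transcripts of Agtr1a also occur in those of Agtr1b. Agtr2 (ENSMUSG00000068122, chromosome X, 21484544 to 21489164), the type 2 receptor, whose actions mostly oppose those of type 1, fell as well. It was at 6.49, 5.83, 4.55, and 5.42 CPM in aged sham 1 to 4, and at 0.762, 1.97, 1.27, 0.232, and 0.549 CPM in aged bleo 1 to 5 (log2 fold change -2.55 ± 0.50 SE, FDR 0.00538). With both receptors lower, the ratio of Agtr1a to Agtr2 on the FPKM scale ranged from 1.78 to 2.79 in aged sham and from 3.57 to 8.02 in aged bleo.

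Ace (ENSMUSG00000020681, chromosome 11, 105967945 to 105989964), encoding angiotensin-converting enzyme, had the highest mean of the 10 genes in both groups. It was at 825, 777, 1003, and 972 CPM in aged sham 1 to 4, and at 1022, 902, 707, 516, and 559 CPM in aged bleo 1 to 5. The aged bleo libraries lay on both sides of the aged sham range (log2 fold change -0.27 ± 0.21 SE, FDR 0.343, 95% interval -0.74 to 0.20). An antisense gene, Gm11651, overlaps Ace and was at 60.0 ± 10.0 CPM (SD, n = 4) and 49.4 ± 14.3 CPM (SD, n = 5), and their reads cannot be told apart where they overlap without strand. Ren1, encoding renin, was at 1.48 ± 0.684 CPM and 0.997 ± 0.526 CPM (log2 fold change -0.58 ± 0.46 SE, FDR 0.351).

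The wider renin-angiotensin list held 22 genes, of which 17 were tested, 1 rose, 3 fell, and 13 did not pass, with a median log2 fold change of -0.18. The share called was close to that of all genes tested. Anpep, encoding aminopeptidase N, which trims angiotensin peptides, fell from 403 ± 25 CPM (SD, n = 4) to 156 ± 68 CPM (SD, n = 5; log2 fold change -1.37 ± 0.29 SE, FDR 0.00733). The other aminopeptidase genes Enpep, Lnpep, and Rnpep had log2 fold changes of -0.00277, -0.176, and 0.00290 and did not pass. Prcp, encoding a carboxypeptidase that inactivates angiotensin II, passed the FDR threshold but not that of the fold change (log2 fold change 0.51 ± 0.12 SE, FDR 0.0127), as did Agtrap, the receptor-associated protein (log2 fold change -0.29 ± 0.09 SE, FDR 0.0275).

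In the lysophosphatidate system, both receptors among the members fell and the LPA-producing enzyme did not pass. Lpar1 (ENSMUSG00000038668, chromosome 4, 58435255 to 58553898), the LPA receptor most abundant here, was at 185, 152, 162, and 202 CPM in aged sham 1 to 4. It was at 113, 134, 114, 76.7, and 80.4 CPM in aged bleo 1 to 5. The groups were apart, with the lowest values in aged bleo 4 and aged bleo 5 (log2 fold change -0.76 ± 0.17 SE, FDR 0.0101). Lpar4 (ENSMUSG00000049929, chromosome X, 106920625 to 106933900), a receptor of another structural family that also binds LPA, was at 5.62, 6.03, 6.98, and 7.39 CPM in aged sham 1 to 4. After injury it was at 3.87, 4.31, 4.91, 3.23, and 4.54 CPM in aged bleo 1 to 5 (log2 fold change -0.64 ± 0.15 SE, FDR 0.0108). The groups did not overlap, but the fold change of 1.56 was close to the threshold, and without aged sham 4 or aged bleo 4 the log2 fold change was -0.58 or -0.57, no longer called. On the FPKM scale, the ratio of Lpar1 to Lpar4 was 23 to 32.6 in aged sham and 17.5 to 30.6 in aged bleo, ranges that overlapped.

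Enpp2 (ENSMUSG00000022425, chromosome 15, 54838898 to 54920146), encoding autotaxin, was at 569, 297, 209, and 384 CPM in aged sham 1 to 4. After injury it was at 364, 439.7, 537, 194, and 259.7 CPM in aged bleo 1 to 5. The libraries of both groups covered much the same range, 2.73-fold in aged sham and 2.76-fold in aged bleo (log2 fold change -0.02 ± 0.35 SE, FDR 0.968, 95% interval -0.80 to 0.75). The sign of this difference changed with the processing, and without aged sham 1, the library with most Enpp2, the log2 fold change was 0.27.

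Of the 17 genes of the wider lysophosphatidate list, 13 were tested, 3 rose, 4 fell, and 6 did not pass, with a median log2 fold change of -0.02. Among all genes tested 23.8% were called, and Enpp2, Lpar1, and Lpar4 are counted again in this list. The largest fall was that of Plpp3, listed under its older symbol Ppap2b, which encodes a lipid phosphate phosphatase that removes extracellular LPA. It was at 1177, 1170.5, 1261, and 1364 CPM in aged sham 1 to 4. After injury it was at 379, 601, 426, 154, and 201 CPM in aged bleo 1 to 5, and the groups were far apart (log2 fold change -1.82 ± 0.35 SE, FDR 0.00520). Plpp1 (Ppap2a) did not pass (log2 fold change -0.13 ± 0.17 SE, FDR 0.595), and the less abundant Plpp2 (Ppap2c) rose from 5.87 ± 0.647 CPM to 10.3 ± 2.19 CPM (log2 fold change 0.81 ± 0.17 SE, FDR 0.00743). The ratio of Plpp3 to Enpp2 on the FPKM scale was 2.27 to 6.64 in aged sham and 0.851 to 1.5 in aged bleo. This ratio of the degrading to the producing enzyme was lower in each injured library than in any uninjured one, while Enpp2 itself was not called.

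Pla1a, a phospholipase that yields lysophospholipids, fell from 92.1 ± 15.1 CPM (SD, n = 4) to 35.0 ± 8.05 CPM (SD, n = 5; log2 fold change -1.40 ± 0.18 SE, FDR 8.28e-04). Plppr3 (Lppr3), a relative of the phosphatases, rose from 29.6 ± 2.58 CPM to 50.2 ± 4.66 CPM (log2 fold change 0.76 ± 0.09 SE, FDR 4.44e-04). Among the LPA receptor genes, 5 of 6 were tested. Lpar3 was the receptor that rose, from 1 to 15 reads per aged sham library to 22 to 109 reads per aged bleo library (log2 fold change 2.77 ± 0.57 SE, FDR 0.00663). Its aged sham counts were all under 25, so Lpar3 passed the filter only through its aged bleo counts. Without aged bleo 4 it did not pass the filter. Its level stayed low, at 0.159 FPKM in aged bleo against 10.4 FPKM for Lpar1. Lpar2 and Lpar6 had log2 fold changes of -0.31 and 0.24 and did not pass, and Lpar5 was below the filter.

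**Figure D2:**
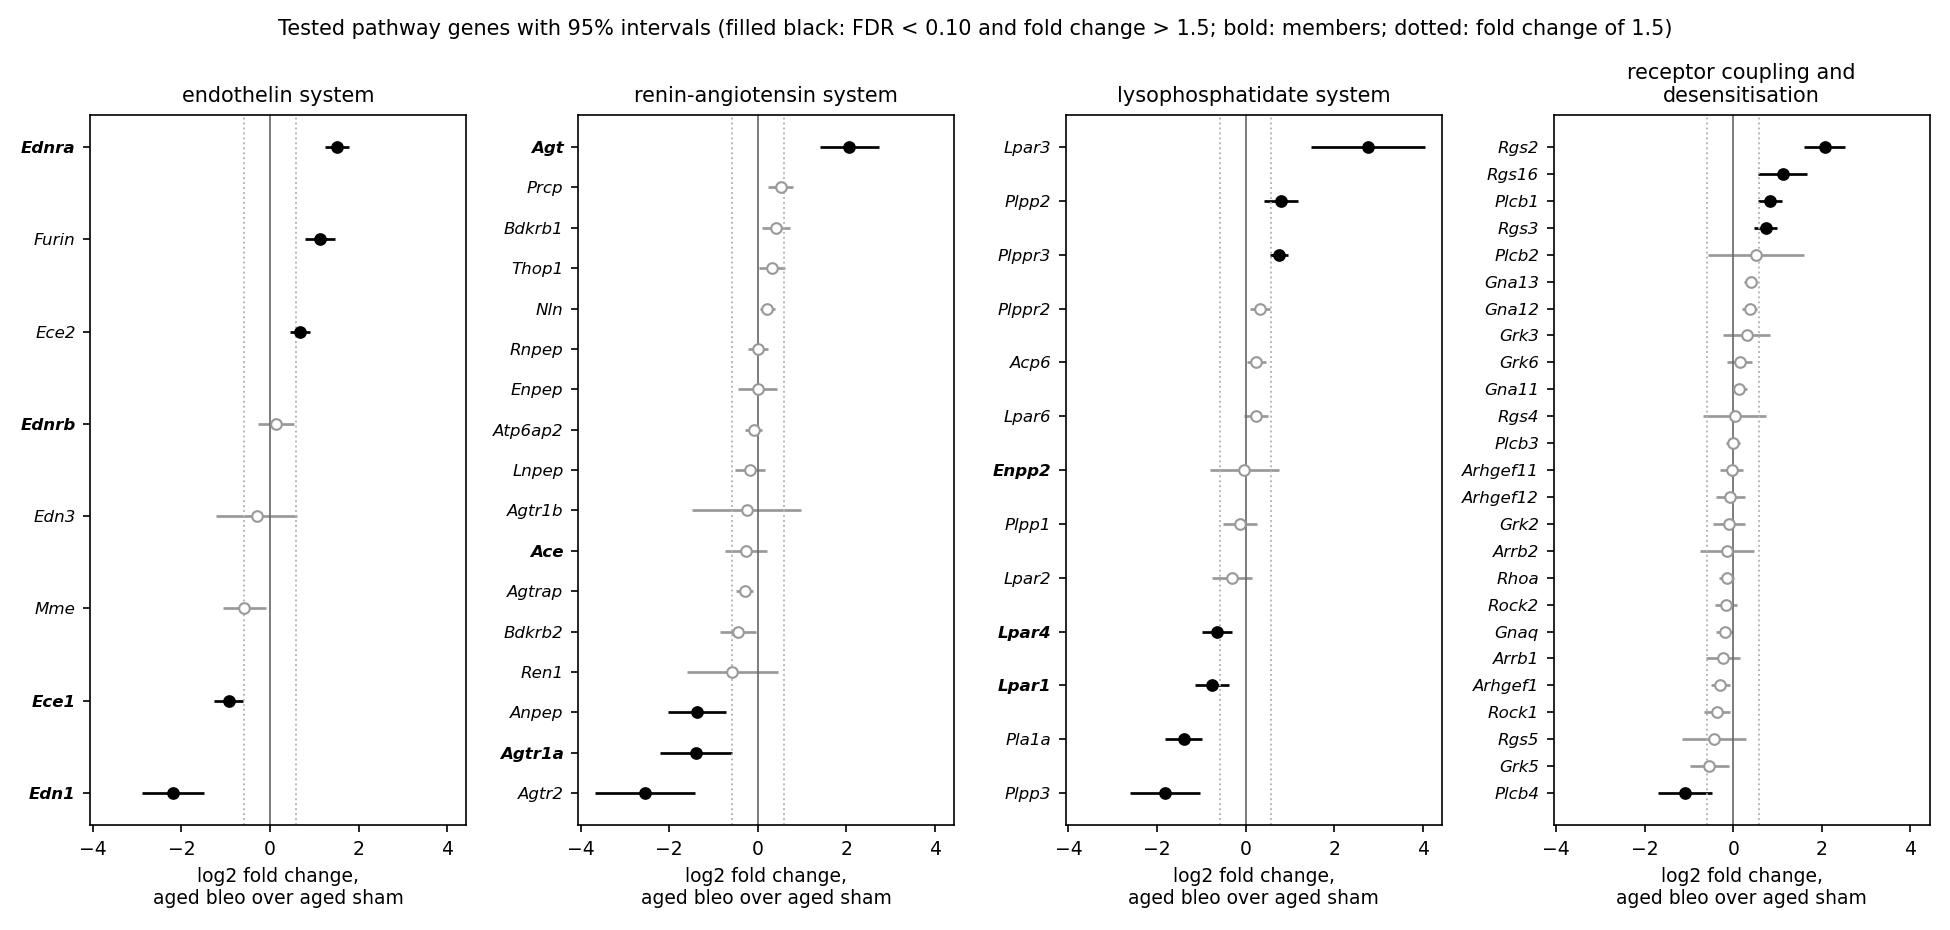
Log2 fold changes of aged bleo over aged sham with 95% intervals for the tested genes of the endothelin, renin-angiotensin, and lysophosphatidate lists and of a list of receptor coupling genes, with called genes filled in black, members in bold, and dotted lines at a fold change of 1.5. Higher and lower called genes occur in each of the panels.

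Levels of different genes can be set side by side on the FPKM scale, which is scaled to gene length. In aged sham the order was Ace at 70.9 ± 8.41 FPKM (SD, n = 4), Enpp2 at 44.0 ± 18.4, Lpar1 at 17.1 ± 1.93, Ece1 at 13.5 ± 0.422, Ednra at 5.84 ± 0.889, Edn1 at 1.73 ± 0.481, Agtr1a at 1.62 ± 0.198, Ednrb at 0.741 ± 0.125, Lpar4 at 0.644 ± 0.0764, and Agt at 0.182 ± 0.0539. Of the neighbors in this order, Ace and Enpp2, Edn1 and Agtr1a, and Ednrb and Lpar4 had overlapping ranges. In aged bleo, Ednra moved up to the place after Enpp2 with 17.0 ± 1.40 FPKM (SD, n = 5), above Lpar1 in each library. Among the least abundant genes after injury, Ednrb, at 0.837 ± 0.162 FPKM, lay above Lpar4, at 0.422 ± 0.0561, and Edn1, at 0.386 ± 0.125, without overlap, and the ranges of Lpar4 and Edn1 overlapped. Agt and Agtr1a, at 0.787 ± 0.243 and 0.624 ± 0.281 FPKM, overlapped each other and these 3 genes. Ednra over Lpar1 was 0.265 to 0.469 in aged sham and 1.24 to 2.11 in aged bleo. The ligand gene fell as its receptor rose, and Edn1 over Ednra was 0.218 to 0.441 in aged sham and 0.0126 to 0.0315 in aged bleo. For angiotensin the direction was the reverse, with Agt over Agtr1a at 0.0884 to 0.151 in aged sham and 0.466 to 4.78 in aged bleo.

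**Figure D3:**
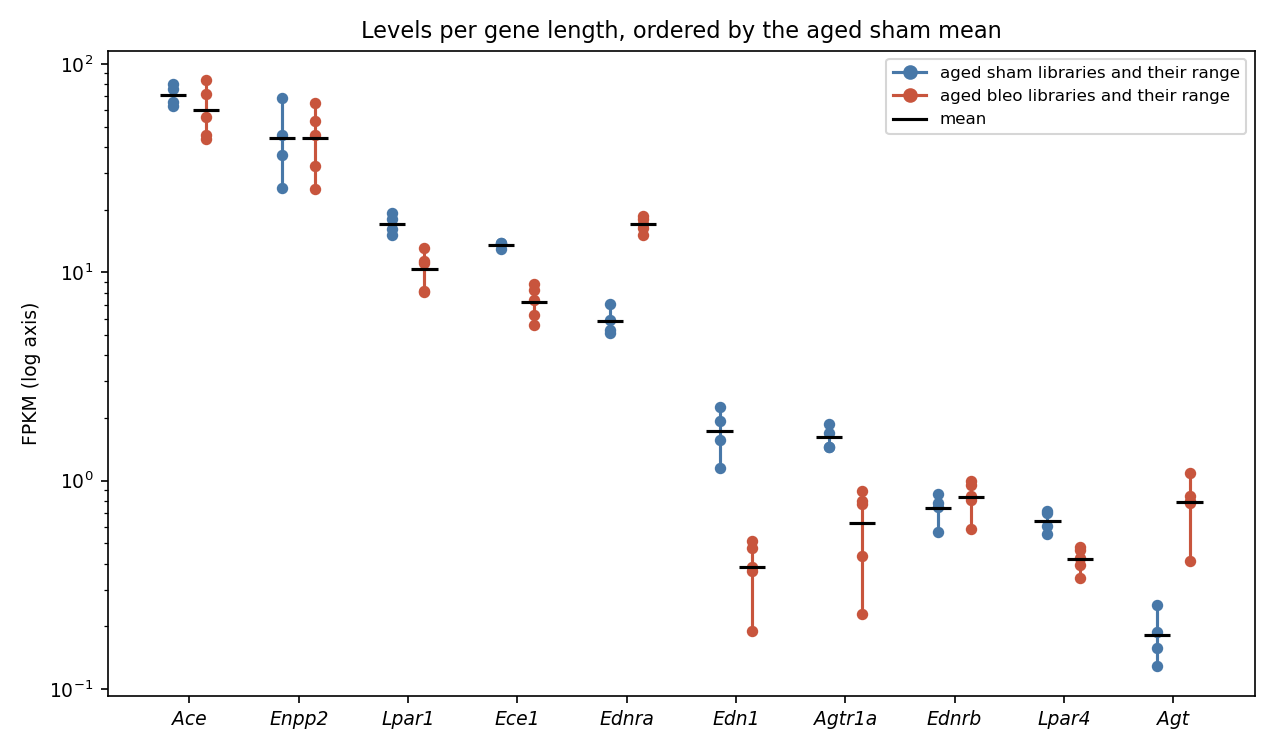
FPKM of the 10 genes on a log axis, ordered by the aged sham mean, with aged sham libraries in blue, aged bleo libraries in red, vertical lines for their range, and black bars for the means. Ednra rises from 5.84 to 17.0 FPKM and Edn1 falls from 1.73 to 0.386 FPKM.

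The receptors of the 3 systems signal through shared G proteins, effectors, and regulators. Of 25 such genes, all 25 were tested, 4 rose, 1 fell, and 20 did not pass, with a median log2 fold change of -0.04. The share called was under that of all genes tested. Of the 5 genes for RGS proteins, which limit G protein signaling, 3 rose. Rgs2 was at 29.5, 59.4, 42.0, and 49.7 CPM in aged sham 1 to 4. It was at 218, 142, 189.7, 198, and 197 CPM in aged bleo 1 to 5, with every injured library above every uninjured one (log2 fold change 2.06 ± 0.21 SE, FDR 1.84e-04). Rgs16 (log2 fold change 1.12 ± 0.25 SE, FDR 0.00855) and Rgs3 (log2 fold change 0.73 ± 0.12 SE, FDR 0.00200) rose less, and Rgs4 and Rgs5 did not pass, at 0.03 and -0.44. None of the 4 receptor kinase and 2 arrestin genes was called. Of the phospholipase C genes that Gq activates, Plcb1 rose from 14.9 ± 1.99 CPM to 26.5 ± 3.21 CPM (log2 fold change 0.83 ± 0.12 SE, FDR 0.00116) and Plcb4 fell from 108 ± 19.4 CPM to 50.8 ± 19.6 CPM (log2 fold change -1.09 ± 0.27 SE, FDR 0.0149). The G protein genes Gna12 and Gna13 and the kinase gene Rock1 passed the FDR threshold with log2 fold changes of 0.37, 0.39, and -0.37, under the threshold of the fold change, as did Arhgef1, a RhoA activator, and Grk5, a receptor kinase, at -0.30 and -0.54. Gnaq and Gna11 passed neither, at -0.20 and 0.14, nor did Rhoa and Rock2, at -0.15 and -0.16.

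The aged bleo libraries were not alike. In a principal component analysis of log2 CPM over all genes tested, the first axis placed sham and injured libraries apart. On it, the aged bleo libraries ran from 5.18 in aged bleo 2 over 35.8, 41.7, and 72.4 in aged bleo 1, 3, and 5 to 88.7 in aged bleo 4, and the aged sham libraries lay between -69.1 and -50.1. Aged bleo 4 had the lowest level of 9 of the 10 genes among the injured libraries and the highest of Agt. Of the 7 called genes, 5 had their aged bleo value nearest to aged sham in aged bleo 2, namely Edn1, Ece1, Agt, Agtr1a, and Lpar1. The other called genes, Ednra and Lpar4, were nearest to aged sham in aged bleo 4 and aged bleo 3. The uncalled Ace was at 1022 and 902 CPM in aged bleo 1 and 2 and at 516 and 559 CPM in aged bleo 4 and 5, on both sides of the group mean. The last number of the library name was 4 throughout aged sham and in aged bleo 4, 5 in aged bleo 1, 2, and 3, and 6 in aged bleo 5, and what this number stands for is not given in the sources used here.

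**Figure D4:**
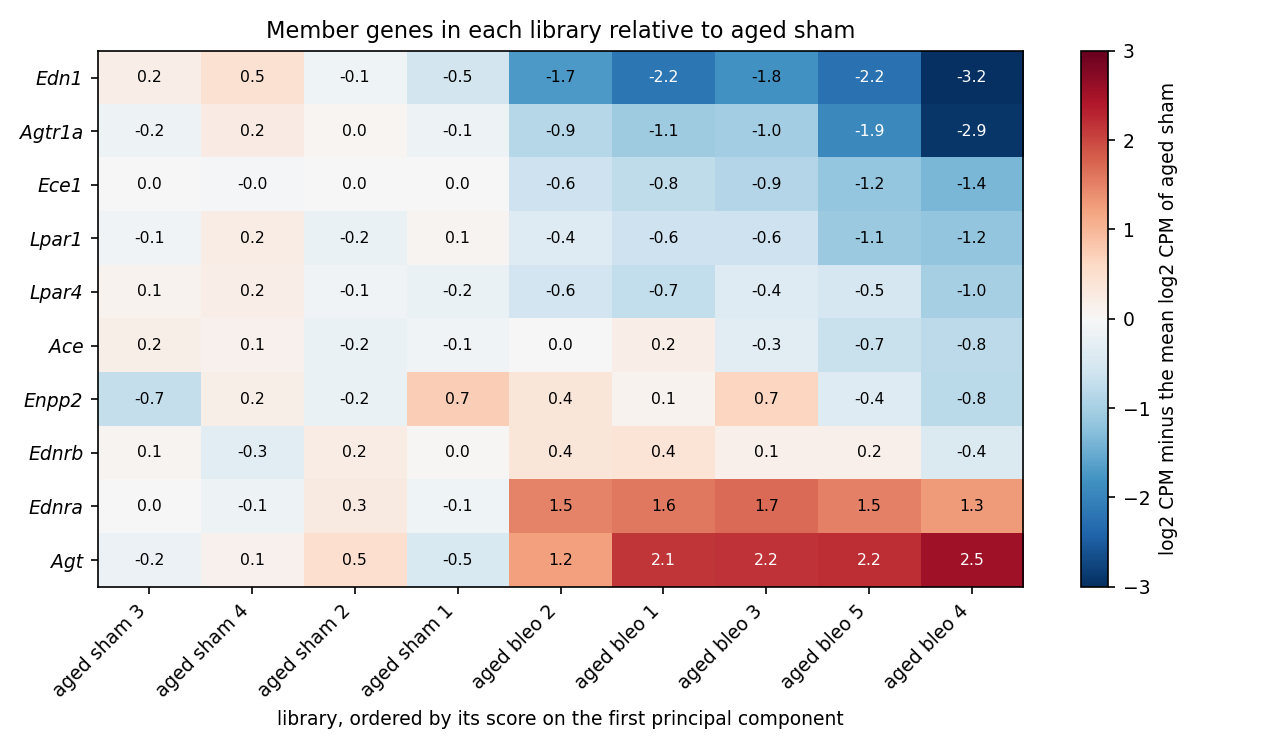
Log2 CPM of each gene in each library minus the mean log2 CPM of aged sham, with libraries in the order of their score on the first principal component and genes in the order of their fold change. Edn1, Agtr1a, Ece1, and Lpar1 are lowest in aged bleo 4, where Agt is highest, and Ednra differs little among the aged bleo libraries.

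The genes whose profile was most like that of each called member were found by the root mean square difference of log2 CPM values, centered on their mean over the 9 libraries, among 15269 tested genes with a mean of at least 1 CPM. A value of 0 would be an equal profile. For Ednra they were Ncald (0.0632), Rnf150 (0.0806), Adcy2 (0.0991), for Agt Aplnr (0.211), Gm22 (0.215), Rgs2 (0.216), and for Edn1 Lurap1l (0.270), Nova1 (0.271), E330013P04Rik (0.287). Rgs2, described above, was thus among the 3 nearest to Agt. For Agtr1a they were F3 (0.140), Naalad2 (0.145), Gm16897 (0.150), for Ece1 Traf3ip2 (0.0587), Kat2b (0.0597), Scd1 (0.0675), for Lpar1 Srpx (0.0920), Lepr (0.0991), Epb4.1l2 (0.101), and for Lpar4 Ifit2 (0.117), Tlr3 (0.120), Aph1b (0.131). The differences were smallest for Ece1 and Ednra and largest for Edn1, so none of the 15269 genes followed Edn1 as closely as Ncald followed Ednra. Edn1 had 73 to 641 reads per library and Ednra 3393 to 13541. The part of read depth in these differences was not tested.

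Markers of other cells were examined, since endothelial cells, pericytes, smooth muscle cells, and leukocytes also express several of the 10 genes. Beside the counts of markers that follow, 23.8% of all genes tested were called, 12.3% higher and 11.5% lower. The 9 fibroblast genes, collagen I among them, summed to 27589.7 to 33153 CPM without injury and 57323 to 74752 CPM after it, far above each list of non-mesenchymal markers. Of them 4 rose, namely Col1a1, Col1a2, Col3a1, and Pdgfrb, 1 fell, namely Dcn (log2 fold change -1.54 ± 0.32 SE, FDR 0.00667), and 4 did not pass. Without the 3 collagen genes the sum was 12494 to 13647 CPM without injury and 6219 to 9154 CPM after it, lower in every injured library. Dcn was the largest part of that sum without injury, at 7695 to 8934 CPM, and was at 1420 to 4432 CPM after it. Of the other genes in that sum, Pdgfrb rose, and Pdgfra, Lum, Vim, and Thy1 did not pass. Endothelial cells are the main source of Edn1 and Ace in many tissues. The 10 endothelial markers summed to 255 to 298 CPM without injury and 89.7 to 144 CPM after it, and 2 of them (Kdr and Egfl7) rose and 1 (Tek) fell. Tek, an angiopoietin receptor, went from 161 ± 12.9 CPM to 28.8 ± 18.8 CPM, whereas the defining markers Pecam1 and Cdh5 averaged 6.12 ± 0.509 CPM and 1.67 ± 0.653 CPM without injury, and 4.34 ± 1.45 CPM and 1.64 ± 0.416 CPM after it, and did not pass. Without Tek the endothelial sum was 101 to 119 CPM without injury and 77.4 to 93.0 CPM after it. Most of this was Ramp2, at 81.6 to 93.8 CPM without injury and 60.5 to 72.4 CPM after it. Its fold change was under the threshold (log2 fold change -0.40 ± 0.07 SE, FDR 0.00341). None of the endothelial markers was at 0 in any library. The part of endothelial RNA in the fall of Edn1, Ece1, and Agtr1a was not tested.

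The 14 smooth muscle and pericyte markers summed to 4301 to 7703 CPM without injury and 3125 to 4925 CPM after it, ranges that overlapped, and 4 of them rose and 4 fell. Of pericyte and mural cell markers, Cox4i2 (log2 fold change 2.02 ± 0.24 SE, FDR 4.72e-04), Higd1b (log2 fold change 2.67 ± 0.44 SE, FDR 0.00250), Notch3 (log2 fold change 1.21 ± 0.26 SE, FDR 0.00804), and Pdgfrb (log2 fold change 0.66 ± 0.11 SE, FDR 0.00209) rose, and Abcc9 (log2 fold change -1.24 ± 0.41 SE, FDR 0.0427) and Kcnj8 (log2 fold change -0.88 ± 0.32 SE, FDR 0.0572) fell. Cox4i2 and Higd1b were low, at 0.711 and 0.348 CPM without injury and 2.89 and 2.23 CPM after it. The aged sham reads of Higd1b averaged under 25, so Higd1b passed the filter only through the aged bleo libraries. Of contractile markers, Acta2 did not pass (log2 fold change -0.58 ± 0.22 SE, FDR 0.0629), and Myh11 (log2 fold change -1.16 ± 0.38 SE, FDR 0.0412) and Cnn1 (log2 fold change -0.96 ± 0.27 SE, FDR 0.0226) fell. Macrophage markers summed to 159 to 278 CPM without injury and 466 to 1526 CPM after it, and 5 of 10 rose. Without Lyz2, the most abundant of them, the sum was 79.1 to 119 CPM without injury and 93.0 to 395 CPM after it, and the groups overlapped. Pan-leukocyte markers summed to 162 to 552 CPM without injury and 166 to 847 CPM after it. Both sums were highest in aged bleo 4, the library in which 9 of the 10 genes were lowest among the injured ones. Epithelial markers summed to 29.8 to 124 CPM without injury and 28.1 to 76.7 CPM after it, and 1 rose and 2 fell of 11. This share of called epithelial markers was near the 23.8% of all genes tested. Mesothelial markers summed to 28.6 to 84.3 CPM without injury and 35.5 to 126 CPM after it, and none of 6 tested was called. Of all these markers, Calb2 of the mesothelial list was the 1 gene at 0 in some library. What part these cells have in the results was not tested.

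Markers of fibroblast subtypes also differed between the groups. Among all genes tested, 12.3% were called higher and 11.5% lower. Of 10 markers of adventitial fibroblasts, 9 fell and 1 rose, and their sum was 9158 to 10802 CPM without injury and 1911 to 5686 CPM after it, lowest in aged bleo 4. The gene that rose was Col15a1. Of 10 markers of alveolar fibroblasts, 4 rose and 3 fell, with a sum of 2873 to 4607 CPM without injury and 1203 to 3208 CPM after it. The adventitial sum was 4858, 5686, 4365, 1911, and 2095 CPM in aged bleo 1 to 5. The 2 lowest libraries, aged bleo 4 and aged bleo 5, also had the lowest Edn1, Agtr1a, Ece1, Lpar1, Ace, and Enpp2. This did not hold for Ednra, Ednrb, and Lpar4, and Agt was highest in these libraries. The alveolar sum was lowest in the same libraries, at 1203 and 1591 CPM. The part of fibroblast subtypes in the results was not tested.

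**Figure D5:**
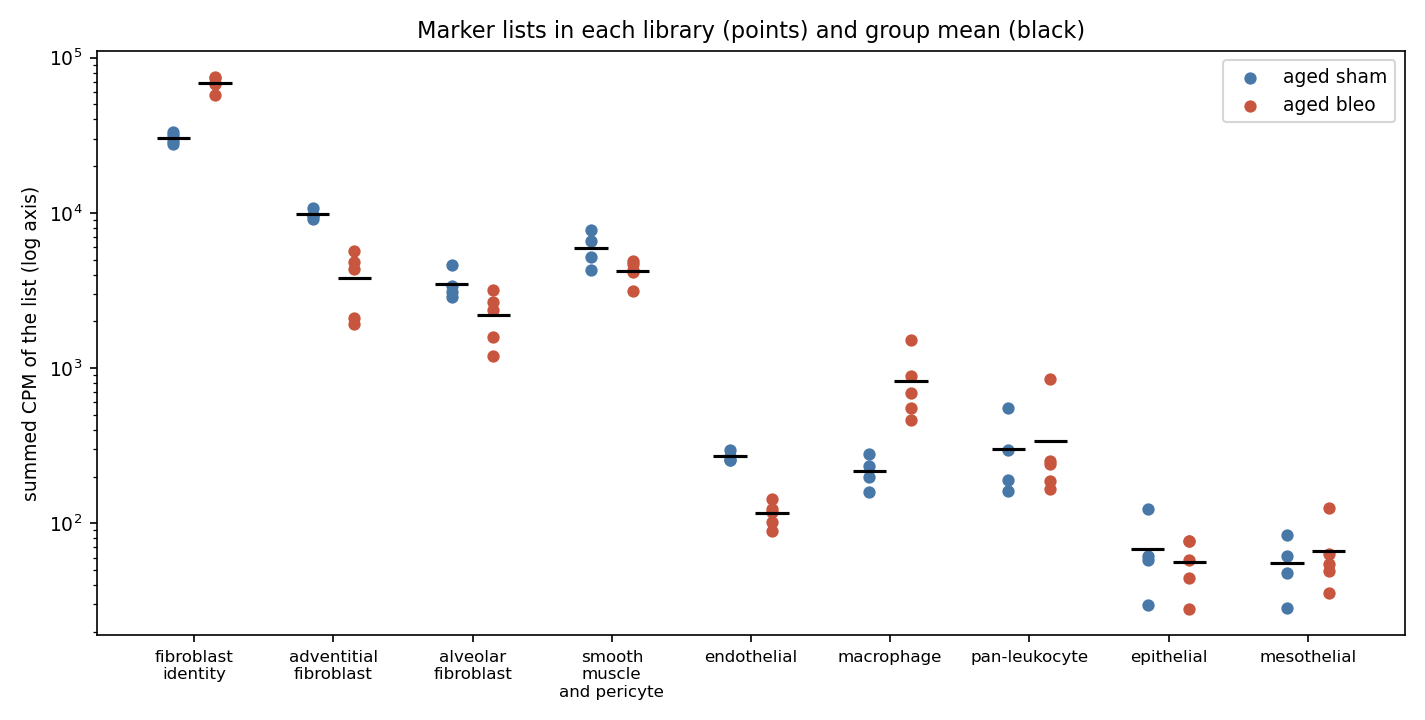
Summed CPM of each marker list per library on a log axis, with aged sham in blue, aged bleo in red, and group means in black. Aged bleo libraries are above all aged sham libraries for the fibroblast identity and macrophage lists and below them for the adventitial fibroblast and endothelial lists, and the groups overlap for the others. The endothelial sum is carried by Tek and Ramp2, and Kdr and Egfl7 of that list rose. Without Tek it is 101 to 119 CPM without injury and 77.4 to 93.0 CPM after it. The fibroblast and macrophage sums are carried by the collagen genes and by Lyz2. Without these the fibroblast sum is 12494 to 13647 CPM without injury and 6219 to 9154 CPM after it, and Dcn makes up most of that fall. The macrophage sum without Lyz2 is 79.1 to 119 CPM without injury and 93.0 to 395 CPM after it.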

How the data were processed

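RNA-Seq was performed on poly-A libraries of 4 aged sham and 5 aged bleo fibroblast sorts. The authors deposited whole-number read counts without normalization and FPKM values scaled to gene length and library total. The submitters' processing notes name bcl2fastq, STAR 2.5.2b, Subread, featureCounts, mm10, and GRCm38. The kit does not mark strand, and the strand setting of the counting is not given in the sources used here. Of 42462 gene identifiers shared with GENCODE M21 (GRCm38), 33460 have the same position, as do 7 of the 10 members.

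Libraries were grouped by their titles. Genes averaging 25 counts or more per library were tested with edgeR 4.0.16 (TMM, glmQLFit, glmQLFTest; R 4.3.3), with no covariate and thresholds of FDR under 0.10 and fold change over 1.5. DESeq2 1.42.0 and limma 3.58.1 (limma-trend on log2 CPM, log2(FPKM + 0.1), and log2(FPKM + 1)) were alternatives, as were other scalings and filters, an FDR under 0.05, leaving out each library, and a replicate block. CPM is TMM-normalized, and log2 CPM has a prior count of 2. Intervals of 95% come from the fit. Labels do not say that libraries are of separate mice. The study states that its plotted points stand for independent mice, or for replicates in cell culture. The p-values test the group difference against the spread between these libraries. None was a duplicate, since counts within groups differed far beyond counting noise (chi-square over degrees of freedom 30.9 or more). The floor for a count of 0, set at 3 counts, was 0.0409 to 0.0604 CPM and covers counting error only.

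The members and lists were chosen with earlier results of these data known. Named genes are the 10 members, genes of the 4 pathway lists that were called or are ligands, receptors, or enzymes, marker genes, and the 3 genes nearest in profile to each called member. RefSeq promoter entries (GRCm38.p6) were found for 8 of the 10 members. Figures were drawn with matplotlib 3.10.9.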

Additional observations from a re-analysis of the deposited data

Results flagged for a closer look

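Of the 20 sets of libraries, 1 per gene and group, 1 held a library far from the others. Ece1 was at 166.6 CPM in aged sham 4 and at 171.9 to 172.2 CPM in the other aged sham libraries, and the gap was 0.950 of the whole range, above Dixon's 95% critical value for 4 libraries. Chance flags about 1 in 20 such sets, and the aged bleo values were 65.6 to 111 CPM.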

How the results depend on the processing

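Of 180 alternative fold changes of the 10 genes, 169 kept their sign and their side of the thresholds. The exceptions were Enpp2 and Lpar4. The log2 fold change of Enpp2 was -0.02 and had the opposite sign on log2(FPKM + 0.1), at 0.0180, on log2(FPKM + 1), at 0.0175, and with the replicate block, at 0.0691. With single libraries left out, it ranged from -0.21 without aged bleo 3 to 0.27 without aged sham 1. Its values without aged sham 4, aged bleo 4, and aged bleo 5 were 9.42e-04, 0.12, and 0.0751. Lpar4 was no longer called on log2(FPKM + 0.1), at -0.51, and on log2(FPKM + 1), at -0.21, where the pseudocount exceeds its FPKM. The cause of the former was not tested. It ranged from -0.71 to -0.57 with single libraries left out. Of 95 alternative list counts, 93 were within 1.5 times the count reported, and on log2(FPKM + 1) the lysophosphatidate list had 4 called genes and the coupling list 3. On that scale the log2 fold changes of the low genes Edn1, Agt, and Agtr1a were -0.96, 0.59, and -0.70, all still called, and 1785 genes were called in all, against 4022. The calls of Furin, Agtr2, Anpep, Pla1a, Plpp3, Plppr3, Rgs2, Rgs16, and Plcb4 held under every alternative tried, those of Ece2, Plpp2, Lpar3, Rgs3, and Plcb1 were lost on log2(FPKM + 1), and Mme was called under 8 of 18 alternatives. These genes were added to the alternatives after the data were seen. Lpar3 was tested under 16 of the 18 alternatives. It failed the filter of at least 10 counts in every library, and the usual filter without aged bleo 4. For replicate numbers 1 to 4, the same-numbered libraries had correlations of deviations of 0.0922, 0.0623, -0.130, and 0.326, and 1 of 4 was over 0.1. So few values cannot settle whether these numbers pair the libraries. With the replicate block, 7 of the 10 genes and 3536 genes in all were called. Depth limits the low genes, with as few as 1 read for Lpar3, 14 for Edn3, 17 for Agtr2, 26 for Ren1, and 36 for Agt in a library.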
